A study of Mus musculus with 15 samples.

Results

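The 8 genes described here, *Serpine2*, *Serpinf1*, *Plau*, *Plat*, *Plaur*, *F3*, *F5* and *Thbd*, encode serpins, plasminogen activators with their receptor, and regulators of coagulation. They were chosen by gene symbol and each had a row in both count tables, so they are 8 of the 20910 genes of the cultured cells and 8 of the 25038 genes of the tissue. Bulk RNA-seq was available for mRPE cells, a mouse retinal pigment epithelium (RPE) line, and for mouse RPE/choroid. mRPE cells come from pooled C57/BL6J mice and were immortalised with a lentivirus that carries papillomavirus oncogenes. All mRPE cells of the design express Cas9 from a lentivirus, with a scrambled guide RNA in WT and a guide RNA against *Prom1* in the knockout. Each knockout line is 1 clone, so a clone's libraries do not repeat the editing. WT had 4 libraries (8995-SB-1, 9262-SB-1, 9262-SB-2 and 9262-SB-3), clone KO22 had 3 (8995-SB-2, 9262-SB-4, 9262-SB-5) and clone KO26 had 2 (8995-SB-3 and 9262-SB-6). The number at the start of a library name was taken as its batch. The study set both KO26 libraries aside as outliers of a principal component analysis, and here they are kept as a group of their own. The RPE/choroid libraries were 3 of WT mice (12965-SB-01 to 12965-SB-03) and 3 labelled Prom1_KO (12965-SB-04 to 12965-SB-06), from Prom1 fl/fl mice crossed with an RPE65-Cre line that is switched on by Tamoxifen given by gavage. In that model the deletion is limited to cells that express *Rpe65*, and the choroid keeps *Prom1*. Whether the WT mice were treated is not stated in the sources used here. The study gives a range of ages of young adult mice, of both sexes, for the project as a whole and none for either group. The study speaks of its libraries as biological replicates, but whether those of 1 group came from separate cultures or animals is not given in the sources used here, so p-values measure the spread between these libraries, which may be technical.

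A serpin is a protease inhibitor that is cut by its target and traps it in a covalent complex. Serpine2, protease nexin, inhibits thrombin and both plasminogen activators at the cell surface. Serpinf1, pigment epithelium-derived factor (PEDF), has the serpin fold but inhibits no protease, and it is a neurotrophic and anti-angiogenic protein that the RPE secretes. The activators urokinase (*Plau*) and tissue plasminogen activator (*Plat*) turn plasminogen into plasmin, which degrades fibrin and matrix, and the urokinase receptor (*Plaur*) holds urokinase on the membrane. Tissue factor (*F3*) starts coagulation on cell surfaces, factor V (*F5*) is the cofactor with which factor Xa makes thrombin, and thrombomodulin (*Thbd*) binds thrombin and turns it towards activation of protein C.

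The promoters of *F3*, *Plaur* and *Serpine2* are shown because these genes were among the members that differed most between KO22 and WT and because they hold matches to a motif of a common transcription factor. *F5* also meets both of these reasons and is not shown. RefSeq promoters were found for 5 of the 8 members, *Serpine2*, *F5*, *F3*, *Plaur* and *Serpinf1*. The sequences are RefSeq's for GRCm38.p6, each matched once to GRCm39, and the coordinates are those of GRCm39. The RefSeq starts of *F3*, *Plaur* and *Serpine2* lie inside the longer gene spans of GENCODE. The 250 bases before the gene start were searched on both strands for AP-1 (TGANTCA), the Sp1 GC box (GGGCGG), NF-kappaB and the E-box (CACGTG). These 250 bases are called the window of a gene, and only 30 of them are printed for each gene shown. Capitals mark AP-1 letters in *F3* (chr3:121517034-121517063, plus strand) and *Plaur* (chr7:24161828-24161857, plus strand), and GC boxes in *Serpine2* (chr1:79836411-79836440, minus strand).
F3: cgctgtTGAATCAcggtTGAGTCAcccctt
Plaur: acccctggagcTGACTCActctttagcaaa
Serpine2: gcgGGGCGGGGCGGgccgggGGGCGGggga
The *F3* window held 2 AP-1 matches, at bases -146 and -135 from the start, and the *Plaur* window held 1, at base -69. AP-1 letters were present in 6.87% of 27025 promoters searched the same way. The *Serpine2* window held 6 GC boxes, not all of them within the bases printed, and 32.9% of all promoters held at least 1. The windows of *F3* and *Plaur* each held 3 GC boxes, which are not within the bases printed, and that of *F5* held 1. The *Serpinf1* window held none of the motifs searched, and neither the NF-kappaB letters (1.40% of promoters) nor the E-box (6.05%) were in any of the 5 windows. These matches describe letters only, and whether a factor binds there was not tested.

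Library totals ran from 10187978 to 27537863 counts for WT mRPE and from 11863633 to 20760399 for KO22, and were 24175274 and 8076188 for KO26. Levels are CPM (counts scaled to a common library size with TMM factors), given as mean ± SD, and levels of different genes are compared per kilobase of the Ensembl-canonical transcript. A gene was said to rise or fall where edgeR's quasi-likelihood test gave an adjusted p under 0.05 and the log2 fold change was larger in size than 1.2. The identity of the cells rests on few markers here. Of 9 RPE markers only *Mitf* and *Best1* had a row among the deposited mRPE counts, which leave out genes with low counts. *Mitf* was at 3.02 to 6.78 CPM in the WT libraries. *Col1a2*, a fibrillar collagen gene used as a fibroblast marker, was at 5131 to 6956 CPM in the same libraries.

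In WT mRPE, *Serpinf1* had the highest level per kilobase of the 8 genes, followed by *F3*. *Serpinf1* was at 267 ± 21.1 CPM per kb (n = 4), which was above 99.5% of the 20737 genes with a canonical length, and *F3* was at 93.2 ± 10.4. *Serpine2* (29.7 ± 6.95) and *Plat* (24.97 ± 1.44) came next. Their ranges over the libraries overlapped, but *Serpine2* was the higher of them within each WT library, by little in 9262-SB-3. *Plaur* (2.99 ± 1.87) and *Plau* (2.97 ± 0.670) could not be ordered, since their order differed between libraries. *Thbd* and *F5* were near 0. Urokinase transcripts were thus far fewer per kilobase than tissue plasminogen activator transcripts in each WT library.

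KO22 was compared with WT to ask how these genes differ between a *Prom1*-deficient clone and its control. *Serpine2*, *F5*, *Plaur* and *Thbd* rose, *F3* fell, and *Serpinf1*, *Plau* and *Plat* did not pass both limits. Thus 5 of the 8 genes passed, against 25.2% of the 20455 genes tested, with 4 higher (background 11.4%) and 1 lower (background 13.8%). By adjusted p alone 7 of 8 passed, beside 53.0% of all genes, and for 7 of 8 the CPM of the groups did not overlap, beside 50.1% of all genes. *F5* passed the count filter only through its KO22 libraries, as did *Thbd* with 1 WT library, so both had to differ in order to be tested, and the counts above contain them.

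*Serpine2* (ENSMUSG00000026249) lies on the minus strand of chromosome 1 (79763323 to 79839144) in GRCm39, the build of all gene spans given. Its CPM was 87.8, 58.2, 63.9 and 53.0 in the WT libraries 8995-SB-1, 9262-SB-1, 9262-SB-2 and 9262-SB-3. In KO22 it was 1027 (8995-SB-2), 575 (9262-SB-4) and 575 (9262-SB-5). Every KO22 library lay above every WT library, and in both groups the library of batch 8995 was the highest. The log2 fold change was 3.37 (SE 0.12), a 10.4-fold difference, with an edgeR adjusted p of 3.2e-07. Within batch 8995 it was 3.54, from 1 library a group, and within batch 9262 it was 3.29, on CPM with a pseudocount of 0.5.

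*Serpinf1* (ENSMUSG00000000753, chromosome 11, 75299998 to 75322362, minus strand) moved the other way by less. Its span overlaps that of *Smyd4* on the opposite strand. Its CPM was 608, 599, 700 and 683 in WT, in the same library order, and 455, 436 and 379 in KO22. The groups did not overlap. The log2 fold change of -0.62 (SE 0.13) had an edgeR adjusted p of 0.0026 but was smaller than the limit on size. In KO22 *Serpine2* was the highest of the 8 genes per kilobase, at 328 ± 118 CPM per kb (n = 3), with *Serpinf1* next at 174 ± 16.4. Their ranges, 260 to 465 and 156 to 187, did not overlap, and the order of the 2 serpins was thus the reverse of that in WT.

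Neither of the activators passed both limits. *Plat* (ENSMUSG00000031538, chromosome 8, 23247709 to 23272871, plus strand) was at 70.1, 63.9, 63.1 and 61.6 CPM in WT. It was at 79.0, 63.6 and 57.4 CPM in KO22. The KO22 libraries spanned the whole WT range, and the log2 fold change was 0.01 (SE 0.10, edgeR adjusted p = 0.935). In this comparison the median over the tested genes of chromosome 8 was a log2 fold change of 0.60, and *Plat* was at -0.59 relative to it. *Plau* (ENSMUSG00000021822, chromosome 14, 20886722 to 20893453, plus strand) was at 9.18, 5.48, 6.38 and 6.89 CPM in WT and at 5.19, 3.52 and 3.41 CPM in KO22. All KO22 values were below all WT values, by a log2 fold change of -0.84 (SE 0.18, edgeR adjusted p = 0.00396), which did not reach the limit on size.

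*Plaur* (ENSMUSG00000046223, chromosome 7, 24161875 to 24175394, plus strand), the receptor that localises urokinase, rose. It was at 8.86, 3.91, 2.95 and 2.73 CPM in WT and at 45.7, 28.3 and 28.8 CPM in KO22. The WT library of batch 8995 was well above the other WT libraries, and still below every KO22 library. The log2 fold change was 2.89 (SE 0.19, edgeR adjusted p = 4.25e-06), with 2.30 within batch 8995 and 2.99 within batch 9262.

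The transcripts of the inhibitor and of its targets were also set against each other within each library. The ratio of *Serpine2* to the sum of *Plau* and *Plat*, all in CPM per kb, ranged from 0.898 to 1.28 in WT, from 9.98 to 14.2 in KO22, and was 0.457 and 1.59 in KO26. These are ratios of transcripts, and no protein or protease activity was measured.

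*F3* (ENSMUSG00000028128, chromosome 3, 121516610 to 121528820, plus strand), the starter of coagulation, fell. Its CPM was 174.5, 175.3, 176.6 and 217 in WT and 16.1, 35.3 and 26.4 in KO22. All KO22 libraries were far below all WT libraries, and the KO22 library of batch 8995 was the lowest. The log2 fold change was -2.85 (SE 0.20), a 7.19-fold difference, with an edgeR adjusted p of 5.18e-06. In WT *F3* ranked 2 among the 8 genes per kilobase, and in KO22 it ranked 6, at 8.06 to 17.7 CPM per kb.

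*F5* (ENSMUSG00000026579, chromosome 1, 163979289 to 164047846, plus strand) was nearly absent from WT and abundant in KO22. The raw counts were 2, 0, 2 and 0 in the WT libraries and 8719, 4260 and 3231 in the KO22 libraries. In CPM the KO22 libraries were at 754, 205 and 251, and the WT libraries were at 0.20 or less. The ratio of the pooled rates, 16210 counts against 4, was 5730 with a 95% counting interval of 2240 to 21000, which covers counting error only. The fitted log2 fold change of 12.56 depends on the prior count and is given only with its edgeR adjusted p of 8.51e-08. *F5* was at 53.4 ± 40.3 CPM per kb in KO22, ranked 3 among the 8 genes by its mean. Its libraries spread from 27.2 to 99.9 CPM per kb and overlapped the range of *Plat* (22.2 to 30.5). Within each KO22 library *F5* was above *Plat*.

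*Thbd* (ENSMUSG00000074743, chromosome 2, 148216045 to 148250201, minus strand) stayed low in every mRPE library. Its raw counts were 0, 6, 0 and 0 in WT and 30, 29 and 14 in KO22. The KO22 libraries, at 2.59, 1.40 and 1.09 CPM, were above the WT library with counts, at 0.411. The ratio of pooled rates, 73 counts against 6, was 17.2 with a 95% counting interval of 7.53 to 48.4, for counting error only, and the edgeR adjusted p was 0.00441. All 6 WT counts came from 9262-SB-1, and without that library the fitted log2 fold change went from 3.98 to 7.93 (edgeR adjusted p = 0.000904), a value that then depends on the prior count. With each library left out in turn it ran from 2.95 to 7.93. DESeq2's test gave an adjusted p of 0.0699, so the call for *Thbd* rests on the test used. The gene span of *Thbd* overlaps that of *Sstr4* on the other strand, and the strand setting of the counting is not given in the sources used here.

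**Figure D1:**
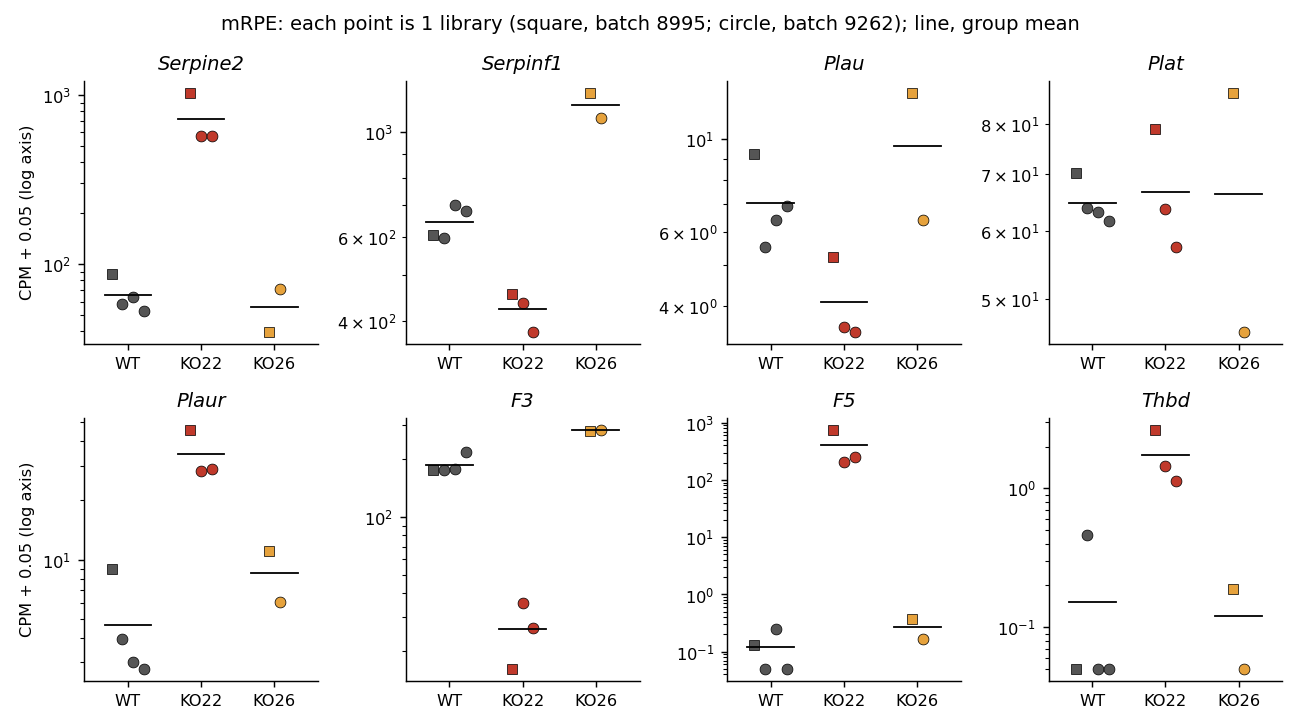
CPM plus 0.05 on a log axis (the scales differ between panels) for the 8 genes in 4 WT, 3 KO22 and 2 KO26 mRPE libraries, with squares for batch 8995, circles for batch 9262 and a line at the group mean. KO22 lies above WT for *Serpine2*, *Plaur*, *F5* and *Thbd* and below it for *Serpinf1*, *Plau* and *F3*, while both KO26 libraries of *Serpinf1* and *F3* lie above WT.

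Marker lists of other cell types also differed between these groups. The summed CPM of 5 fibroblast markers was 12804 to 17500 in WT and 5565 to 8668 in KO22, with *Col1a1*, *Col1a2* and *Pdgfra* lower past both limits. *Col3a1* (log2 fold change -0.47, edgeR adjusted p = 0.0336) and *Dcn*, which went the other way (0.61, edgeR adjusted p = 0.113), did not pass them. The summed CPM of 5 endothelial markers was 153 to 237 in WT, almost all of it *Kdr*, and 3.96 to 5.30 in KO22. That sum is nearly 1 gene, and the list went both ways: *Kdr* and *Tek* fell, *Plvap* rose at low counts with groups that overlapped (log2 fold change 1.82, edgeR adjusted p = 0.0192), and *Esam* did not pass (0.50, edgeR adjusted p = 0.424). The summed CPM of 6 mural cell markers, led by *Acta2*, was 951 to 1975 in WT and 311 to 420.5 in KO22, where *Acta2*, *Pdgfrb* and *Rgs5* fell and *Cspg4* rose. Macrophage markers, led by *Cd68*, summed to 7.82 to 9.72 CPM in WT and 12.2 to 14.9 CPM in KO22. Of these *Cd163* rose, to about 1 CPM from 0.0686 CPM or less, and it passed the count filter only through its KO22 libraries. The RPE marker *Mitf* rose as well, to 10.4 to 20.2 CPM (log2 fold change 1.41, edgeR adjusted p = 0.0055), and 1 photoreceptor marker rose and 1 fell. The part of these lists in the results for the 8 genes was not tested. Fewer cells of a kind and less RNA per cell cannot be told apart in bulk libraries.

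The second clone was compared with WT in 1 fit over the 9 mRPE libraries. None of the 8 genes rose or fell in KO26 by both limits, beside 1.92% of the 20737 genes tested. By adjusted p alone 1 of 8 passed, *Serpinf1*, beside 3.50% of all genes. At an unadjusted edgeR p under 0.05 there were 3 of 8, *Serpinf1*, *F3* and *Plaur*, beside 20.1% of all genes, and DESeq2's test called 0 by both limits. Marker lists differed here too. The fibroblast sum was 19867 CPM in 8995-SB-3 and 21794 CPM in 9262-SB-6, above every WT library, and the endothelial sum, again mostly *Kdr*, was 74.2 and 56.6 CPM, below every WT library. The collagen genes carried the fibroblast sum, while *Pdgfra* was below every WT library (log2 fold change -0.78, edgeR adjusted p = 0.0228, under the limit on size) and *Dcn* overlapped WT (-0.32, edgeR adjusted p = 0.619). The RPE marker *Mitf* was at 1.62 and 2.08 CPM, below every WT library, without passing (log2 fold change -1.54, edgeR adjusted p = 0.0864). *Rgs5*, a mural cell marker, rose to 4.13 and 5.78 CPM from 0.437 to 1.58 CPM in WT (log2 fold change 2.55, edgeR adjusted p = 0.0116). Their part in the KO26 values of the 8 genes was not tested. The comparison with KO22 uses the same WT libraries, so the values of the clones are set side by side and not as separate evidence.

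In KO26 *Serpinf1* was higher than in WT where in KO22 it was lower, and *Serpine2* was not raised. *Serpinf1* was at 1207 and 1071 CPM in 8995-SB-3 and 9262-SB-6, above all WT libraries, with a log2 fold change of 0.80 (SE 0.14, edgeR adjusted p = 0.0184) that was below the limit on size. *Serpine2* was at 39.5 and 71.5 CPM, 1 library below and the other within the WT range. Its log2 difference from the WT of the same batch was -1.14 in batch 8995 and 0.29 in batch 9262, so the batches pointed in opposite directions. Without 9262-SB-6 the log2 fold change of *Serpine2* was -1.24 (edgeR adjusted p = 0.0259), past both limits, and without 8995-SB-3 it was 0.32 (adjusted p = 0.504). Each of these fits leaves KO26 with 1 library, which is assumed to vary like the libraries of the other groups, so their p-values hold no replicate check of KO26.

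Of the activators, *Plat* was at 87.0 and 45.7 CPM and *Plau* was at 12.9 and 6.36 CPM in 8995-SB-3 and 9262-SB-6. The KO26 libraries of *Plat* lay on either side of the WT range, 1 of *Plau* lay above it and the other within, and no difference was resolved (log2 fold changes of -0.12 and 0.25, edgeR adjusted p = 0.73 and 0.553). *Plaur* was at 11.04 and 6.01 CPM (log2 fold change 0.67, SE 0.24, edgeR adjusted p = 0.149). Each KO26 library was above the WT libraries of its own batch, and the ranges over both batches overlapped.

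For coagulation, *F3* was at 282 and 284 CPM in the KO26 libraries, above all 4 WT libraries. Its log2 fold change was 0.70 (SE 0.21, edgeR adjusted p = 0.102). *F5* had 7 and 1 raw counts, and *Thbd* had 3 and 0. Both genes were at the level of a few counts a library, as in WT, and a difference was not detectable at this depth.

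The clones were then compared with each other in the same fit. By both limits 6 of 8 genes differed between KO22 and KO26, beside 18.3% of the 20737 genes tested, and 7 of 8 did so by adjusted p alone, beside 34.4%. *Serpine2*, *F5*, *Plaur* and *Thbd* were higher in KO22 (4 of 8, background 7.56%). *F3* and *Serpinf1* were lower (2 of 8, background 10.7%). *F5* and *Thbd* passed the count filter through their KO22 libraries, with 1 KO26 library for *F5* and 1 WT library for *Thbd*, so these counts again contain 2 genes whose testing rested on the group where they are high. *Serpine2* differed by a log2 fold change of 3.68 (SE 0.35, edgeR adjusted p = 3.94e-05), which ran from 3.05 to 4.62 with libraries left out. *F3* differed by -3.54 (SE 0.24, edgeR adjusted p = 3.73e-06), with 16.1 to 35.3 CPM in KO22 against 282 to 284 CPM in KO26. *Plaur* differed by 2.22 (SE 0.26) and *Serpinf1* by -1.42 (SE 0.15), with edgeR adjusted p of 0.000123 and 7.43e-05. *F5* had 16210 counts over the KO22 libraries against 8 over the KO26 libraries, a ratio of rates of 1350 (95% counting interval 687 to 3140). *Thbd* had 73 against 3, a ratio of 16.3 (5.35 to 80.7), and its edgeR adjusted p of 0.0209 became 0.156 with DESeq2's test. The *Thbd* call was also lost without 8995-SB-2 (log2 fold change 2.94, adjusted p = 0.095), without 8995-SB-3 (7.45, adjusted p = 0.0922) and without 9262-SB-6 (3.76, adjusted p = 0.0809), the last 2 with 1 KO26 library left and the spread taken from the other groups. *Plau*, at -1.10 (SE 0.23, edgeR adjusted p = 0.00436), was just under the limit on size, and *Plat* differed by 0.12 (SE 0.18, edgeR adjusted p = 0.652). The direction held within each batch for all of these genes except *Plat*.

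**Figure D2:**
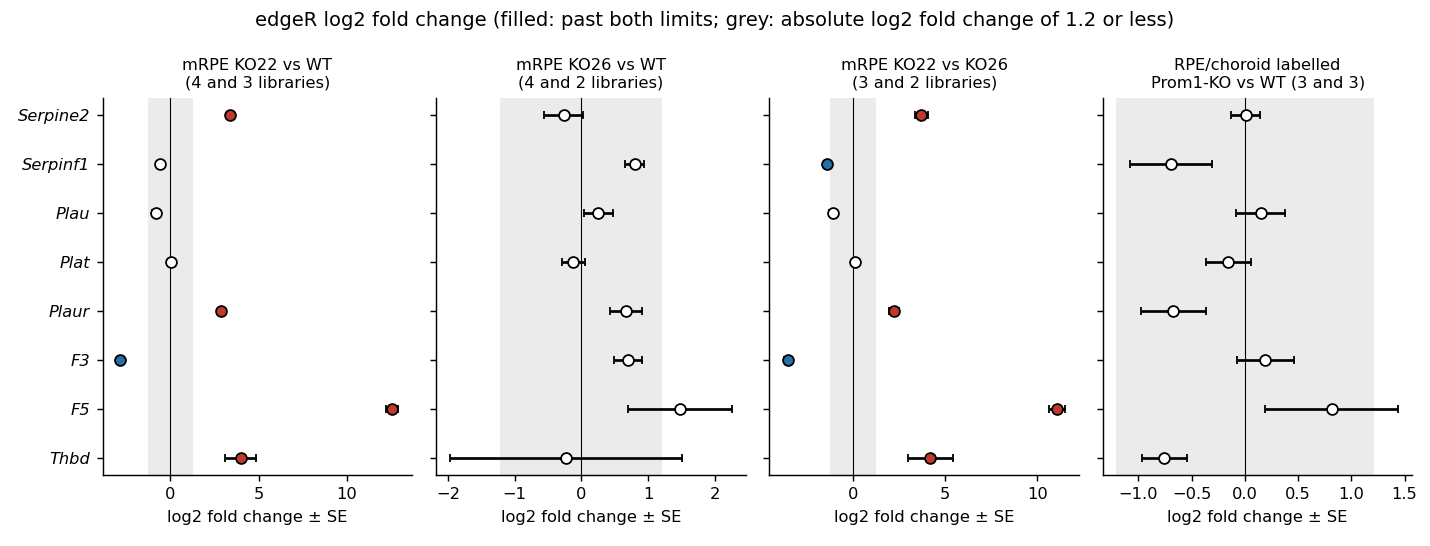
edgeR log2 fold change with its SE for the 8 genes in the 4 comparisons, each on its own horizontal scale. Filled points passed both limits (red, higher and blue, lower) and the grey band spans log2 fold changes of -1.2 to 1.2, so that 5, 0, 6 and 0 genes are filled from left to right.

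The pathway genes around the 8 members came from lists that hold no member and were assembled by function. Their counts for KO22 against WT stand beside 11.4% of all tested genes higher and 13.8% lower, with a median log2 fold change of -0.03. With so few genes a list, nothing is read as particular to a list. Genes with few counts in KO22 or in WT could pass the count filter only through the other group, and the counts contain them. In the plasminogen list (inhibitors, plasminogen receptors and activating proteases), 13 of 21 genes were tested between KO22 and WT, and 5 rose and 4 fell (median log2 fold change 0.43). *Serpinb2*, the intracellular plasminogen activator inhibitor, rose from 0.143 to 0.823 CPM in WT to 48.9 to 145 CPM in KO22 (log2 fold change 7.82, SE 0.40, edgeR adjusted p = 9.5e-07). *Anxa2*, a membrane protein that binds plasminogen and tissue plasminogen activator, rose from 258 to 405 CPM to 759 to 1053 CPM (log2 fold change 1.53, edgeR adjusted p = 6.77e-06). *Plgrkt*, another plasminogen receptor, fell from 45.0 to 66.2 CPM to 11.1 to 23.1 CPM (log2 fold change -1.69, edgeR adjusted p = 8.6e-06). *Eno1* and *Serpini1* (neuroserpin, an inhibitor of tissue plasminogen activator) also rose, and *Masp1*, *Thbs1* and *Hgfac* also fell. *Hgfac*, with 7, 6, 4 and 7 counts in WT and 1, 4 and 1 in KO22, passed the count filter only through WT. *Serpini1* passed it through KO22, with 1 WT library. The list thus held receptors for plasminogen that differed in opposite directions.

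In the coagulation list 18 of 35 genes were tested, and 1 rose and 5 fell in KO22 (list median -0.42 in log2). *Procr*, the receptor that presents protein C to thrombin bound to thrombomodulin, rose from 5.55 to 6.28 CPM to 23.1 to 27.5 CPM (log2 fold change 2.03, SE 0.14, edgeR adjusted p = 4.25e-06). *F8*, the cofactor that resembles factor V, fell from 16.2 to 22.1 CPM to 2.16 to 3.66 CPM (log2 fold change -2.67, SE 0.16, edgeR adjusted p = 2.43e-06). Factor V and factor VIII transcripts thus differed from WT in opposite directions. *Gas6*, a vitamin K-dependent ligand of the TAM receptors, fell from 294 to 584 CPM to 0.259 to 8.34 CPM (log2 fold change -6.61, edgeR adjusted p = 9.08e-06). The thrombin receptor gene *F2r* and *F13a1* (factor XIII) fell as well, as did *Serpina10* at few counts. *Serpina10* had 1, 8, 6 and 22 counts in WT and 1 in each KO22 library. It passed the count filter only through WT, and its groups overlapped. *Tfpi*, the inhibitor of tissue factor, was at 256 to 412 CPM in WT and 166 to 177 CPM in KO22 (log2 fold change -1.03, edgeR adjusted p = 0.00021), below the limit on size. It is named for its role beside *F3* and after its values were seen.

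Receptors for PEDF and for serpin complexes were counted next. Of 5 PEDF receptor candidates 0 rose and 2 fell in KO22, *Lrp6* and *Plxdc2* (list median -0.53 in log2). *Lrp6* was at 287 to 340 CPM in WT, 115 to 148 CPM in KO22 and 315 and 356 CPM in KO26. Of 8 clearance receptors, which take up serpin and protease complexes, 2 rose, *Lrp8* among them, and 1 fell, *Lrp2*, and the median was -0.01. *Lrp1*, which clears Serpine2 complexes, was at 711 to 784 CPM in WT and 393 to 671 CPM in KO22 (log2 fold change -0.67), which did not reach the limit on size.

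Among pericellular proteases and their inhibitors 13 of 18 genes were tested, and 2 rose and 6 fell in KO22 (list median -0.92 in log2). *Hgf*, hepatocyte growth factor, whose protein has the domain plan of plasminogen but no protease activity, rose from 2.98 to 8.16 CPM to 87.6 to 97.8 CPM (log2 fold change 4.02, SE 0.23, edgeR adjusted p = 1.8e-06). *Prss23*, a secreted serine protease, fell from 165 to 212 CPM to 10.0 to 14.9 CPM (log2 fold change -4.01, SE 0.18, edgeR adjusted p = 6.62e-07). *Htra3*, a secreted protease, fell to 0.865 to 1.71 CPM in KO22 and was at 14.4 and 10.8 CPM in KO26, with 4.13 to 7.46 CPM in WT.

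Other serpins went both ways in KO22. Of 31 with a name of the family 24 were tested, and 3 rose, *Serpinb2* and *Serpini1* among them, and 11 fell, with a median log2 fold change of -0.75 beside -0.03 for all genes, of which 11.4% were higher and 13.8% lower. The genes that fell included 7 of the Serpina3 cluster, *Serpinb9*, *Serpinb9b* and *Serpinb6b*. Several of these belong to clusters of close paralogs, whose reads can be hard to assign to the right copy, so the identity of the changed copies is uncertain. *Serpinb9b* was also the only gene of these lists to pass both limits in KO26, at 13.4 and 18.4 CPM against 32.4 to 48.2 CPM in WT (log2 fold change -1.24, SE 0.19, edgeR adjusted p = 0.0111), and it no longer passed without 8995-SB-3 (adjusted p = 0.0784, with 1 KO26 library left and the spread taken from the other groups) or, on size, without 9262-SB-3 (log2 fold change -1.18).

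**Figure D3:**
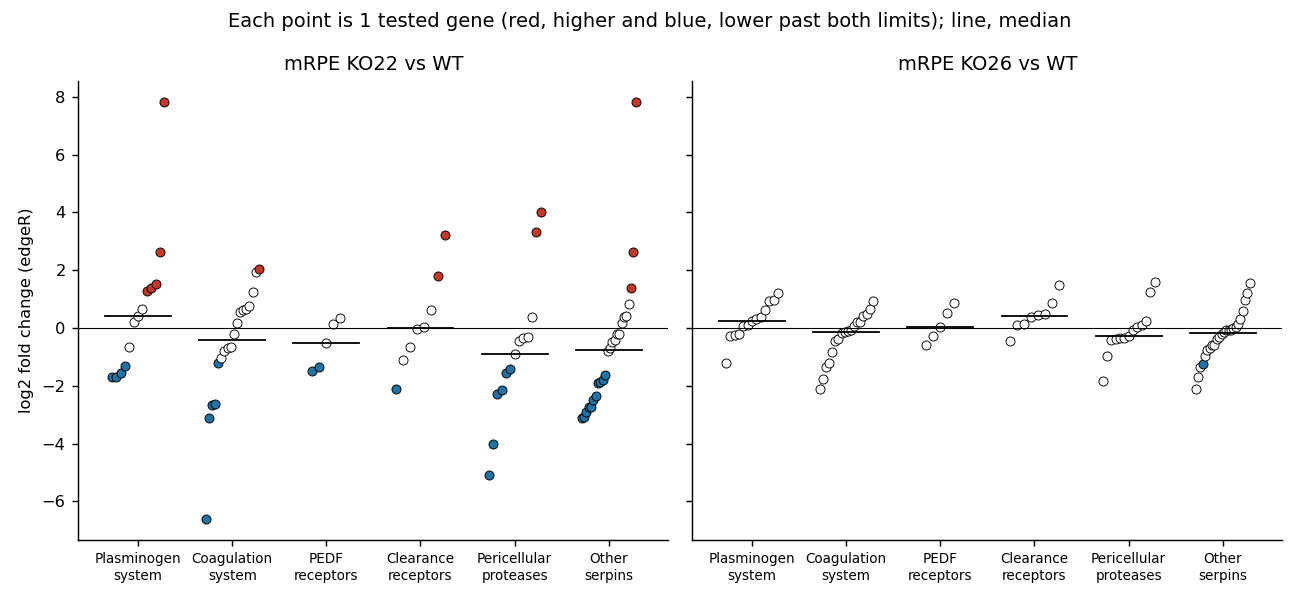
edgeR log2 fold change of each tested gene of 5 pathway lists and of the other serpins in KO22 (left) and KO26 (right) against WT, with red and blue for genes higher and lower past both limits and a line at each list's median. KO22 points are spread from *Gas6* at -6.61 to *Serpinb2* at 7.82, and *Serpinb9b* is the only filled point for KO26.

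Genes with the most similar pattern over the 9 mRPE libraries were sought among 13891 genes by Pearson's r of log2 CPM, as a description in which the clone and batch of a library are shared by all genes. *Serpine2* was most like *Vps35* (r = 0.998), *Akap11* and *Ttll7*. *F3* was most like *Npr3* (r = 0.997), *Tox* and *Arhgef5*. *F5* was most like *Pi4k2b* (r = 0.997), *Kansl2* and *Ptpn12*, and *Plaur* was most like *Zfp330* and *Celf1* (r = 0.994 each). Between 274 and 424 genes had an r over 0.95 with each of these 4 members, so the named genes were few of many. *Serpinf1* had 12 such genes, led by *Itga9* (r = 0.979), *Galnt10* and *Fkbp9*, and *Plau* had 31, led by Gm42928 (r = 0.986), *H2bc4* and *Myadm*. *Plat* had 1, *Actmap* (r = 0.970), followed by *Rfng* and *Brap*. *Thbd*, at 14 to 30 counts in the KO22 libraries and 6 or fewer in the others, was most like *Syce2* (r = 0.967), Gm14798 and *Rabggta*.

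The RPE/choroid libraries had total counts of 48154444 to 61766179, and their labels need care. *Prom1* was at 48.7, 49.6 and 53.3 CPM in the WT libraries and at 49.9, 48.1 and 35.5 CPM in the libraries labelled Prom1_KO (log2 fold change -0.18, SE 0.16, edgeR adjusted p = 0.824). The targeted gene thus overlapped between the groups. Most RPE markers separated the groups, although *Best1* and *Otx2* overlapped. *Rpe65* was at 280, 204 and 287 CPM in WT and at 1.13, 5.98 and 4.48 CPM in the libraries labelled Prom1_KO. All 9 RPE markers had a negative log2 fold change, with a median of -2.98, and *Rpe65*, *Lrat*, *Rgr* and *Slc16a8* fell. Their summed CPM was 1472 to 2371 in WT and 146 to 264 in the libraries labelled Prom1_KO. In addition, 12965-SB-06 stood apart. There *mt-Rnr1* and *mt-Rnr2* took 80.4% of the counts, against 55.3% to 63.2% in the others, and its TMM factor was 0.488 against 1.07 to 1.33. Fewer cells of the RPE and less RNA per RPE cell cannot be told apart here.

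**Figure D4:**
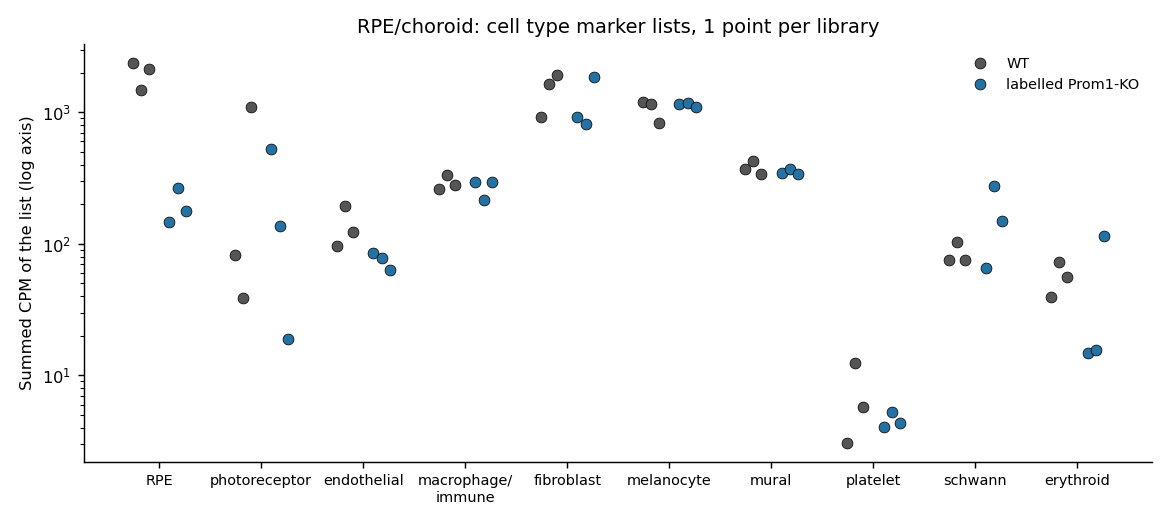
Summed CPM of 10 cell type marker lists on a log axis, 1 point for each of 3 WT (grey) and 3 RPE/choroid libraries labelled Prom1_KO (blue), in library order from left to right. RPE sums of 146 to 264 in the libraries labelled Prom1_KO lie below 1472 to 2371 in WT, endothelial sums are also lower in all 3, and photoreceptor sums run from 18.7 to 1101 over the 6 libraries.

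None of the 8 genes rose or fell between the RPE/choroid libraries labelled Prom1_KO and WT, beside 0.189% of the 24926 genes tested, all of them lower. At an unadjusted edgeR p under 0.05 there was 1 of 8, *Thbd*, beside 8.30% of all genes, and DESeq2's test called 0 of 8 by both limits. The CPM of the groups did not overlap for 2 of 8 genes, *Thbd* and *Plaur*, beside 14.6% of all genes. Per kilobase the order in WT was *Serpinf1* (33.1 ± 11.8 CPM per kb, n = 3), *F3* (13.7 ± 2.15) and *Serpine2* (13.2 ± 1.75), of which *F3* and *Serpine2* overlapped. *Thbd* (5.28 ± 1.45), *Plat* (3.52 ± 0.529) and *F5* (2.64 ± 1.53) followed, and *Plaur* (0.730 ± 0.149) and *Plau* (0.612 ± 0.031) came last. Neighbours within each of these groups overlapped in range. Within each WT library *Thbd* was above *Plat* and *Plaur* was above *Plau*, while the order of *Plat* and *F5* differed between libraries.

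*Thbd*, which on blood vessels holds thrombin in check, was at 14.8, 25.5 and 18.7 CPM in WT and at 13.3, 10.4 and 11.2 CPM in the libraries labelled Prom1_KO. Each of these was below each WT library. The log2 fold change was -0.75 (SE 0.21), with an unadjusted edgeR p of 0.00923 and an adjusted p of 0.358, so it did not pass. The 8 endothelial markers all had negative log2 fold changes, with a median of -0.84 and 0 called, and their summed CPM was 96.5, 193 and 124 in WT against 84.5, 78.4 and 62.9. *Kdr* had the highest mean of them in WT and *Emcn* over all 6 libraries, and none was at 0. The part of the endothelial markers in the *Thbd* values was not tested. *Plaur* was at 1.02, 1.39 and 0.962 CPM in WT and at 0.718, 0.522 and 0.896 CPM in the libraries labelled Prom1_KO (log2 fold change -0.67, SE 0.30, edgeR adjusted p = 0.637). The groups were separate but close, at about 1 CPM.

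*Serpinf1* was at 48.2, 90.2 and 103 CPM in WT and at 35.7, 36.2 and 77.3 CPM in the libraries labelled Prom1_KO. The groups overlapped through 12965-SB-01 and 12965-SB-06, and the log2 fold change was -0.70 (SE 0.39, edgeR adjusted p = 0.706). The summed CPM of 6 fibroblast markers, led by *Dcn*, was 918, 1649 and 1910 in WT and 923, 811 and 1861 in the other group, with 12965-SB-06 the highest of its group for both. The part of the fibroblast markers in the *Serpinf1* values was not tested. Without 12965-SB-06 the log2 fold change of *Serpinf1* was -1.18 (edgeR adjusted p = 0.367).

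*F5*, nearly absent from WT mRPE, was well expressed in this tissue, at 33.1, 11.7 and 14.9 CPM in WT and at 52.1, 43.6 and 9.45 CPM in the libraries labelled Prom1_KO. The last value, of 12965-SB-06, was the lowest of all 6. The log2 fold change was 0.82 (SE 0.63, edgeR adjusted p = 0.798), and without 12965-SB-06 it was 1.25 (adjusted p = 0.449). With each library left out in turn it ran from 0.405 to 1.396. *F3* was at 32.0, 26.6 and 23.5 CPM in WT and at 19.9, 31.8 and 42.1 CPM in the other group, which enclosed the WT range (log2 fold change 0.19, edgeR adjusted p = 0.897). *Serpine2*, at 25.3 to 33.0 CPM in WT and 27.5 to 30.4 CPM in the libraries labelled Prom1_KO, had a log2 fold change of 0.01 with an SE of 0.14 (edgeR adjusted p = 0.994). *Plat* and *Plau* ran from 6.87 to 10.6 and from 1.26 to 1.90 CPM over all 6 libraries, and their groups overlapped. The ratio of *Serpine2* to both activators per kilobase was 3.11 to 3.24 in WT and 2.84 to 4.22 in the other group.

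**Figure D5:**
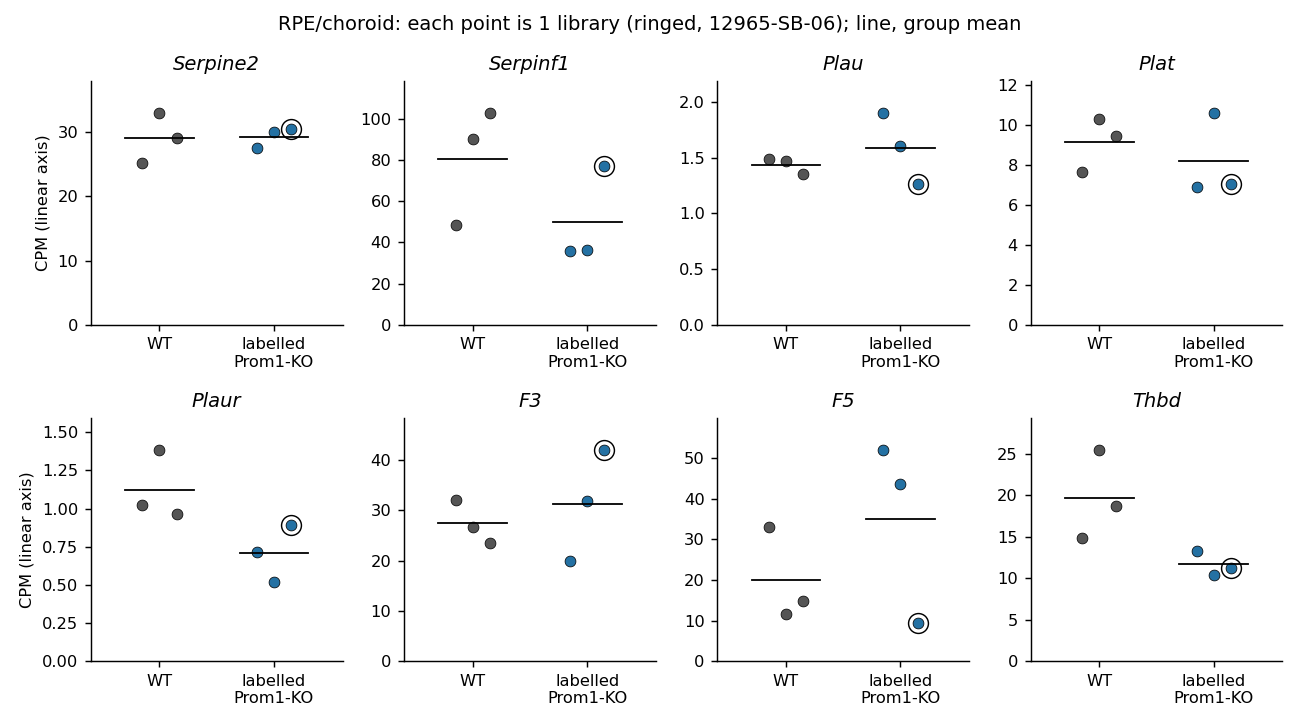
CPM on a linear axis from 0 for the 8 genes in 3 WT and 3 RPE/choroid libraries labelled Prom1_KO, with a line at the group mean and a ring around 12965-SB-06. *Thbd* (13.3 CPM or less against 14.8 or more) and *Plaur* (0.896 or less against 0.962 or more) do not overlap, and the other 6 genes do.

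Of the surrounding lists 1 gene passed both limits in RPE/choroid. *Serpine3*, a relative of *Serpine2*, fell from 26.7, 15.1 and 9.87 CPM in WT to 0.971, 1.62 and 1.69 CPM (log2 fold change -3.60, SE 0.42, edgeR adjusted p = 0.0293). All 3 values were below all WT values, and the RPE marker sum was lower in the same libraries. Its part in the *Serpine3* result was not tested. The call was lost when any 1 of 5 of the 6 libraries was left out (adjusted p 0.0557 to 0.175), while the log2 fold change stayed between -3.88 and -3.13. In mRPE the same gene was at 6.21 to 8.66 CPM in WT and KO22. In KO26 it was at 4.92 and 6.25 CPM, below every WT library, without passing (log2 fold change -0.58, edgeR adjusted p = 0.191). No gene of the plasminogen (14 tested), coagulation (21), PEDF receptor (5), clearance receptor (8) or pericellular protease (17) lists passed both limits in RPE/choroid, with medians of 0.19, -0.04, 0.11, -0.29 and 0.00 beside 0.01 for all genes.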

How the data were processed

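Total RNA of mRPE cells and of RPE/choroid was sequenced as stranded mRNA libraries (an NEB kit per the labels, an Illumina kit in the study's methods). The authors trimmed reads with Trim Galore 0.6.7, aligned them to mm39 with STAR, counted reads per gene and left out genes with low counts before the raw count tables were deposited. The deposited normalized tables were not used. Each library was assigned to its group by its own label, with all value columns matched. Genes that reached 5 counts in 3 or more libraries of a table were tested in R 4.3.3 with edgeR 4.0.16 (TMM, quasi-likelihood, batch as a term for mRPE, Benjamini-Hochberg over all genes tested). The study's limits were used, an adjusted p under 0.05 and a log2 fold change above 1.2 in size. KO22 was compared with WT over 7 libraries, KO26 with WT and with KO22 over 9, and RPE/choroid over 6. The SE was derived from the fold change and the F statistic. The mRPE and RPE/choroid tables were normalized separately, and no test was made between them. The methods were tested on simulated data.

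The 8 members and all lists were chosen with earlier results of these data known. The genes named are the members, up to 8 other called genes of the pathway lists and serpins per comparison (smallest p), the 3 genes most correlated with each member (log2 CPM, prior count 2), *Prom1* where it has a row, and markers of a described list, with the exceptions stated. Of the gene IDs, 20737 of 20910 and 24826 of 25038 were in GENCODE vM39 (GRCm39, the build of mm39). Alternatives were DESeq2 1.42.0's size factors and test, no count filter, filterByExpr, no limit on the fold change, no batch term, batch 9262 alone, other sets of libraries, centring on the chromosome median, no mitochondrial genes and each library left out in turn. *Prom1* had no row among the deposited mRPE counts, which leave out genes with low counts, so it could not be tested there. Some genes that these rules name are not reported here.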

Additional observations from a re-analysis of the deposited data

Results flagged for a closer look

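Among the 4 WT mRPE libraries the highest or lowest value stood apart by Dixon's test for 4 of 21 genes tested, where chance gives about 1 in 20. *F3* was at 217 CPM in 9262-SB-3, *Thbd* at 0.411 CPM in 9262-SB-1, *Anxa2* at 405 CPM in 8995-SB-1 and *Plgrkt* at 45.0 CPM in 8995-SB-1, the last 2 in the WT library of its own batch. For *Thbd* the other 3 WT libraries were at 0, so that any count in the fourth would have stood apart, and its place among the 4 carries no information.

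The effects of the clones against the same WT libraries differed by an edgeR test of KO22 against KO26 at an adjusted p under 0.05 for 18 genes. Of all 20737 genes tested, 34.4% passed. The 18 were counted only among the members and the pathway genes and serpins named for the smallest p, of which *Plat* and *Serpine3* did not pass. Most named pathway genes and serpins were chosen by p in KO22 against WT or in this test, so their passing is not separate evidence. Other genes of the lists also passed this test, *Tfpi* and *Lrp1* among them. Higher in KO22, in log2 units, were *Serpine2* (3.68), *F5* (11.07), *Thbd* (4.19), *Plaur* (2.22), *Serpinb2* (6.60), *Hgf* (4.46), *Procr* (1.64) and *Anxa2* (0.92). Lower in KO22 were *F3* (-3.54), *Serpinf1* (-1.42), *Plau* (-1.10), *Prss23* (-3.04), *Serpinb9b* (-1.84), *F8* (-2.21), *Plgrkt* (-1.76), *Gas6* (-6.79), *Lrp6* (-1.38) and *Htra3* (-3.38). *Plau* and *Anxa2* did not pass the limit on size, and the values for *F5* and *Gas6* depend on the prior count. KO26 had 2 libraries, 1 in each batch.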

How the results depend on the processing

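No paired analysis was made, because apart from the batch the labels do not say which libraries of the compared groups belong together. Between KO22 and WT, *Serpine2*, *F3* and *Plaur* kept direction and call under all 16 alternatives run, and *F5* under the 12 in which it was tested, since leaving out any KO22 library takes it below the count filter. *Thbd* kept its call in 15 of 16 (DESeq2's test, adjusted p 0.0699). *Plat* changed sign with filterByExpr (-0.056), in 1 fit over 9 libraries (-0.006), in batch 9262 alone (-0.047), against its chromosome (-0.59) and with libraries left out (-0.064 to 0.032), and passed nowhere. Between KO26 and WT the sign changed for *Serpine2* in batch 9262 alone (0.30) and with libraries left out (-1.24 to 0.32), for *Plat* without the batch term (0.041) and with libraries left out (-0.43 to 0.23), and for *Thbd* with libraries left out (-3.48 to 3.46). Members called there were 0 to 1 with libraries left out and 1 with no limit on size. Between KO22 and KO26 *Thbd* kept its call in 14 of 18 alternatives, and *Plau* passed both limits in 3 of 18, without 9262-SB-6 (-1.32), with no batch term (-1.275) and against its chromosome (-1.36), besides passing on adjusted p alone. Leaving out a KO26 library leaves 1, with the spread taken from the other groups. There *Plat* changed sign against its chromosome (-0.48) and with libraries left out (-0.22 to 0.45). In RPE/choroid, leaving out libraries gave -0.082 to 0.11 for *Serpine2*, -0.011 to 0.27 for *Plau* and -0.096 to 0.42 for *F3*, and without mitochondrial genes *Serpine2* was at -0.005.

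All genes called between KO22 and WT were 10837 with no limit on size, against 5154. Between KO26 and WT, against 399, they were 629 with DESeq2's test, 725 with no limit on size, 194 without the batch term, 681 in batch 9262 alone, 818 with WT and KO26 alone and 114 (without 8995-SB-3) to 878 (without 8995-SB-2) with libraries left out. Between KO22 and KO26, against 3797, they were 7132 with no limit on size and 2336 with these clones alone. In RPE/choroid, against 47, they were 273 with DESeq2's test and 9 (without 12965-SB-05) to 40 (without 12965-SB-06) with libraries left out. Dropping the limit on size adds genes by construction, and for the other settings the cause was not tested. KO26 has 2 libraries, and *F5* and *Thbd* had 7 or fewer counts in each mRPE library outside KO22.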
